A study of Xenopus tropicalis with 2 samples.

Results

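Differentiating neurons lie between the progenitors and the mature neurons of the tadpole spinal cord. Here they are the cells that the study's table of neural cells names as differentiating neurons, matched to the deposited UMI counts by barcode and library. There were 186 of them among 1075 neural cells and 3707 cells in all, 155 in the library from uninjured tails and 31 in the library from tails at 24 hours post amputation (24hpa).

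The study asked how pax6-expressing neural progenitors of Xenopus tropicalis behave while the tail spinal cord regrows. Both libraries hold GFP-positive cells sorted from the pax6:GFP line, in which a pax6 promoter drives GFP, and promoters of the lens gene cryga and the muscle gene actc1 drive RFP. The tadpoles came from heterozygous carriers crossed to wild type, and gates for GFP were set on wild-type tadpoles. The uninjured library was made from tail tips at NF stage 41, 3 days post fertilization, and the 24hpa library from the tissue that regrew in the day after the posterior part of the tail had been cut off at that stage. Amputation, a day of age, the tissue taken and the library therefore differ together and cannot be told apart. GFP protein can outlast pax6 expression, so the sort can also keep recent descendants of pax6-positive cells. Each library pooled many tails and there was 1 library per group, so no difference between the groups has a replicate check and no p-value is given. All 95% intervals below cover the counting error of UMIs or cells, not the spread between animals or libraries. Those of levels and ratios pool UMIs over cells and also leave out the spread between cells of 1 library.

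During neurogenesis the proneural bHLH transcription factors, neurog1 first and then the neurod and nhlh genes, drive a progenitor out of division and into the neuronal programme. A cell on this path displays Delta ligands such as dlc, and these activate Notch on its neighbours, where hes and hey repressors and the Id proteins hold back bHLH activity and keep the progenitor state. The transient cell between both states switches on RNA-binding proteins of the elavl family, neuronal tubulins and growth cone proteins, followed by genes for transmitter release and by the homeodomain factors that mark each spinal neuron class.

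The 2 libraries held 48622597 and 32798976 UMIs, and 54.2% and 49.1% of these lay in the barcodes the study kept as cells. Depth per differentiating neuron was alike, with a median of 8489 UMIs (range 2745 to 42669) and 2160 genes before injury, and 9084 UMIs (3161 to 35193) and 2200 genes at 24hpa. No barcode of these cells occurred in both libraries, and none of them was marked as a doublet by a caller that marked only 0.306% and 0.367% of all cells, which is too few to show that doublets were absent. RNA of other tissues was present in both sets. Summed over 7 skeletal muscle markers, differentiating neurons carried 1866 CPM (UMIs of a gene scaled to a total of 1000000) in the uninjured library and 857 CPM at 24hpa, while barcodes with 50 UMIs or fewer, which hold free RNA, carried 24585 and 29501 CPM. From these muscle genes, free RNA came to an estimated 7.59% and 2.90% of the UMIs of the differentiating neurons. Skeletal muscle cells, which should lack neuronal genes, are used below as the background for shares of cells with a UMI. Their shares are given at full depth, also where they stand beside shares of cells thinned to equal depth. There were 412 such cells from uninjured tails, whose median depth was 9553 UMIs, and 59 at 24hpa, whose median depth was 16552 UMIs.

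Markers were detected in most of the labelled cells. They were chosen with earlier results of these data known, so their detection describes the cluster and is no test of its label. Of the 5 genes taken as markers, nhlh1, neurod4 and neurod1 are bHLH factors of early neurons, st18 is a zinc finger factor of the myt1 family and dlc is a Delta ligand. At least 2 of these 5 were detected in 122 of 155 uninjured cells (78.7%) and in 22 of 31 cells at 24hpa (71.0%). The same held for 9.89% and 4.23% of spinal cord progenitors and for 11.7% and 3.41% of all neural cells outside the cluster. It held for 0.653% and 0.126% of cells that were not neural. None of the 5 was seen in 12 uninjured and 3 24hpa differentiating neurons. In the study's table of all cells, 150 of the 155 uninjured cells and all 31 cells at 24hpa were named differentiating neuron or interneuron. The other 5 uninjured cells were named spinal cord progenitor (3 cells), dopaminergic neuron (1 cell) and motor neuron (1 cell).

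Among the 6 neural clusters with at least 20 cells in each library, differentiating neurons had the highest level of each marker in 9 of 10 pairs of gene and library. These genes belong to the cells that were clustered, so the levels describe the cluster and are no test of it. For nhlh1, differentiating neurons stood at 243 CPM (95% interval 220 to 267) in the uninjured library and 355 CPM (295 to 422) at 24hpa. Interneurons came next in the uninjured library at 167 CPM (124 to 220), and progenitors were lowest in both at 10.9 and 6.46 CPM. For neurod4 the level was 115 CPM uninjured and 87.9 CPM at 24hpa, against 33.5 and 5.65 CPM in progenitors, and interneurons held no neurod4 UMI in either library (0 of 37 and 0 of 27 cells, which allows shares of up to 8.11% and 11.1%). The dlc level was 81.8 and 76.6 CPM, with progenitors at 18.0 and 1.61 CPM. The st18 level was 49.5 and 56.7 CPM, and its next highest cluster was uninjured interneurons at 30.1 CPM (13.8 to 57.1). The exception was neurod1 in the uninjured library, where motor neurons held 356 CPM (284 to 441) and differentiating neurons 345 CPM (318 to 374), a difference within the counting error. At 24hpa the same motor neuron cluster held 19.0 CPM of neurod1 and differentiating neurons 258 CPM.

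**Figure D1:**
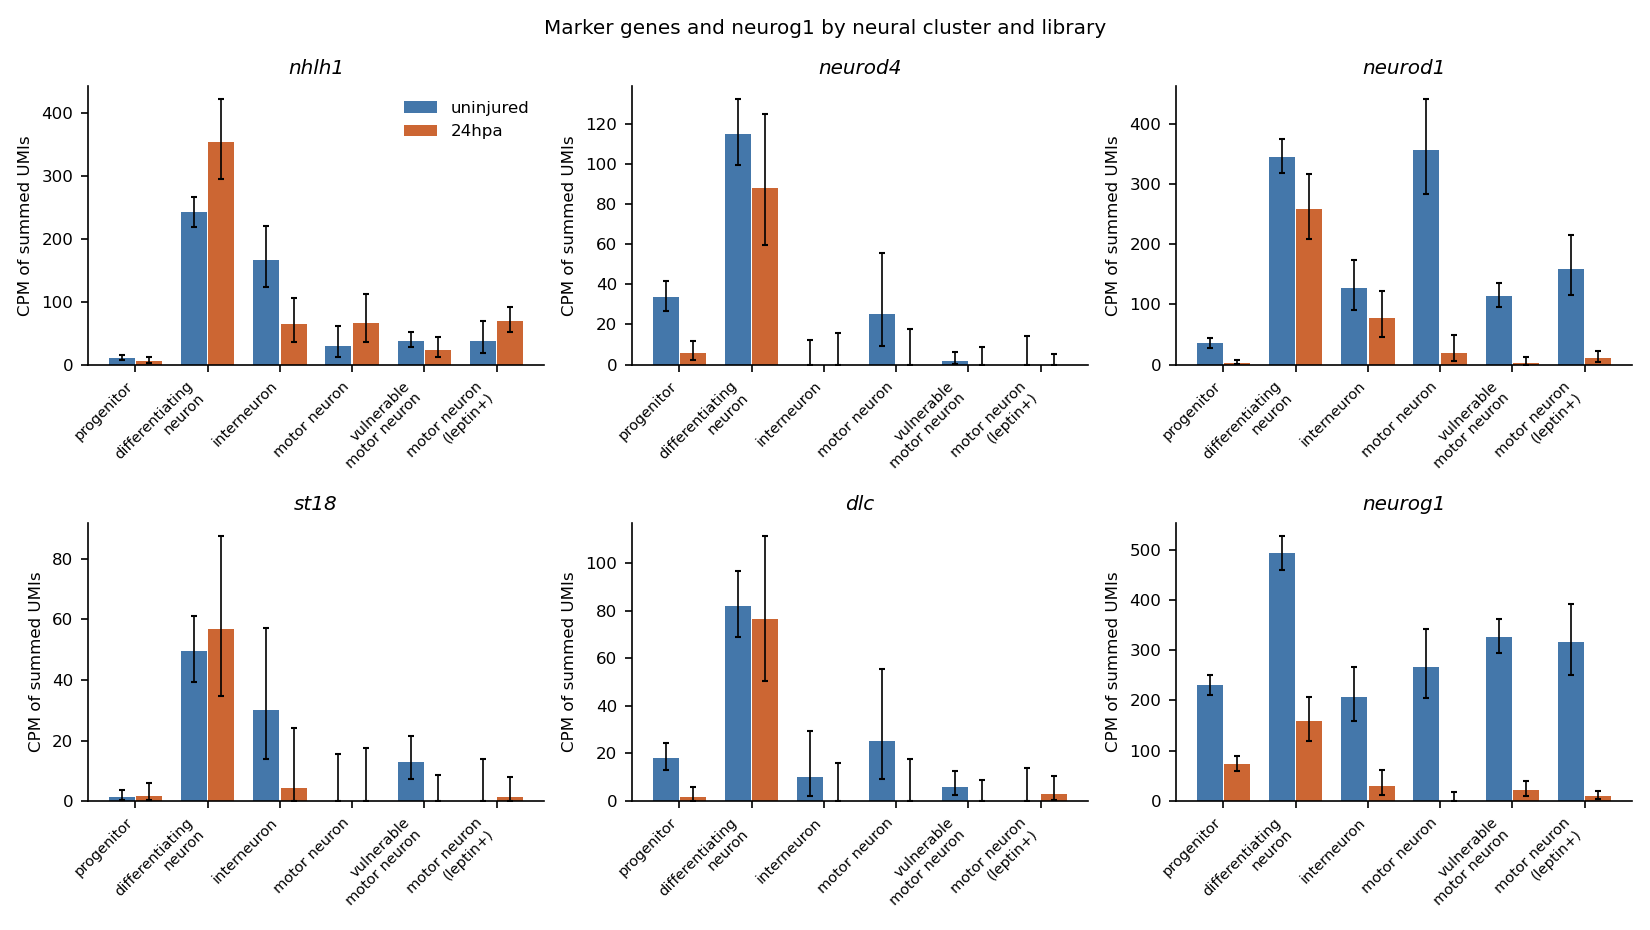
Levels of the 5 marker genes and neurog1 by neural cluster in each library, in CPM of summed UMIs, with 95% counting intervals as error bars. Differentiating neurons lead for every marker except neurod1 in the uninjured library, where motor neurons held 356 CPM against 345 CPM.

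The 10 genes that most set these cells apart from the other neural cells, ranked by the lower of the ratios of both libraries, included all 5 markers, a wnt11-like gene, the extracellular proteoglycan gene ncan and the neuronal RNA-binding protein gene elavl3. The remaining pair has no descriptive name in the annotation. They contained no marker of another cell class. With the libraries summed, the LIM homeobox gene lhx5 took the place of elavl3 among the 10.

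Differentiating neurons were spread over the study's UMAP of neural cells, on which spinal cord progenitors lie at high values of the first axis and interneurons and motor neurons at low values. Uninjured cells ran from -7.64 to 8.70 along this axis with a median of 0.12. This range takes in the values of progenitors, floor plate cells and motor neurons on this axis alone. The cells at 24hpa ran from -1.97 to 6.44 with a median of -0.54. Between -2 and 1, called the middle of the map below, lay 72 of the 155 uninjured cells, and 24 of the 31 at 24hpa. The same stretch holds all 49 uninjured and all 8 24hpa dopaminergic neurons. Their medians on the second axis were 5.23 and 5.26, against 0.40 and 0.31 for differentiating neurons. The axis has no unit and was fitted by the study to both libraries after alignment, so these positions are a description.

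**Figure D2:**
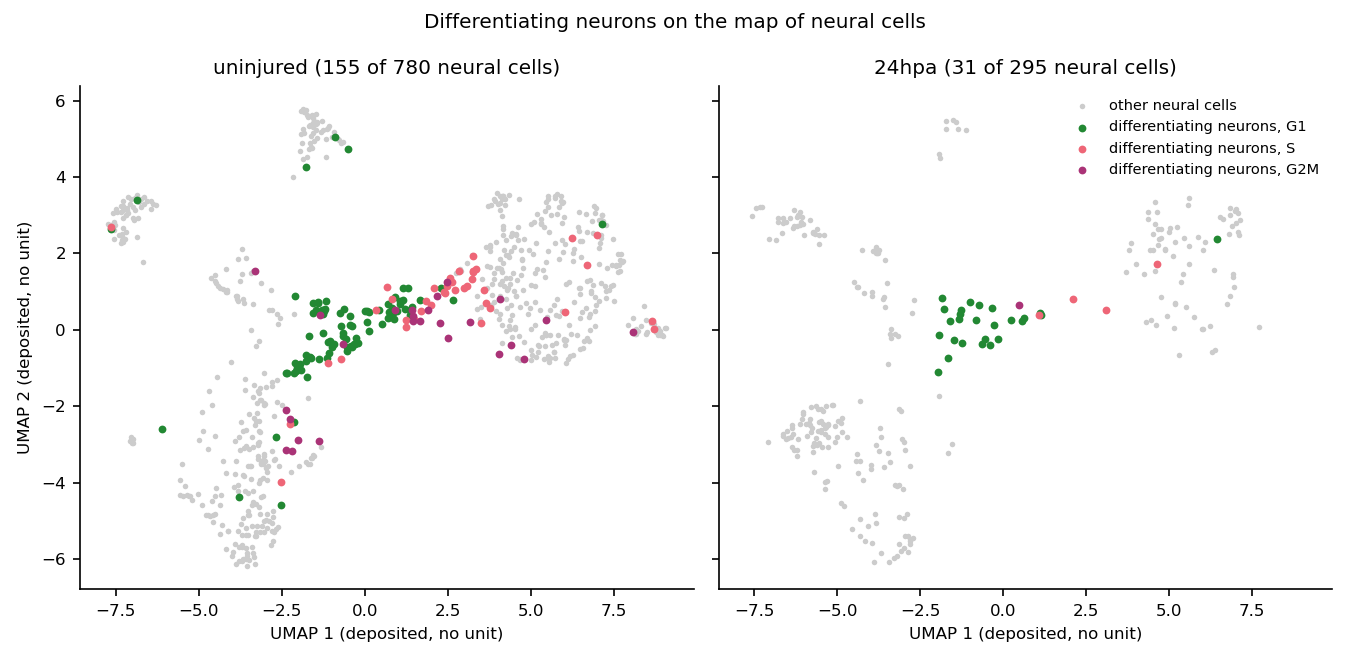
Position of each differentiating neuron on the study's UMAP of neural cells (both axes without unit), coloured by deposited phase, with the other neural cells in grey and 1 panel per library. The 31 cells at 24hpa lie between -1.97 and 6.44 on the first axis and the 155 uninjured cells between -7.64 and 8.70.

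The members of the cluster also differed in the combination of proneural genes. In the uninjured library neurog1 was detected in 129 cells, of which 109 also held neurod1 and 93 held nhlh1. These were 84.5% and 72.1% of cells with neurog1, against 38.5% and 53.8% of the 26 cells without it. Median depth was 9401 UMIs in cells with neurog1 and 6502.5 UMIs in cells without it. The progenitor transcription factor gene sox3 was detected in 116 uninjured cells, and the glial glutamate transporter gene slc1a3 in 80. Of those 80 cells, 74 also held sox3, 72 held neurog1 and 56 held nhlh1, so transcripts of the progenitor and the neuronal programme were found in the same barcodes. Cells with slc1a3 had a median of 13013 UMIs and cells without it 6827 UMIs, a difference in depth that goes with detection. Skeletal muscle cells of the same library held slc1a3 in 7.77% and neurog1 in 3.40% of cells, well below the shares in differentiating neurons of 51.6% and 83.2%.

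By the phases the study called from S and G2M scores, most differentiating neurons were in G1. The uninjured library had 90 cells in G1, 39 in S and 26 in G2M, so that 58.1% (exact Clopper-Pearson 95% interval 49.9 to 65.9%) were in G1. At 24hpa 26 cells were in G1, 4 in S and 1 in G2M, a G1 share of 83.9% (66.3 to 94.5%). Both shares come from 1 library each, and the intervals take no account of the spread between libraries. Depth differed between the phases: uninjured cells called S and G2M had medians of 12479 and 13906 UMIs against 7337 UMIs in G1. Phases scored again at full depth gave G1 shares of 60.6% in the uninjured library and 83.9% at 24hpa. With every cell thinned to 2745 UMIs, the G1 share was 59.7% on average over 20 thinnings (range 55.5 to 64.5%) in the uninjured library and 77.9% (67.7 to 87.1%) at 24hpa. G1 is also the class given to a cell with low scores, so the shares do not separate resting cells from cells in the G1 phase.

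**Figure D3:**
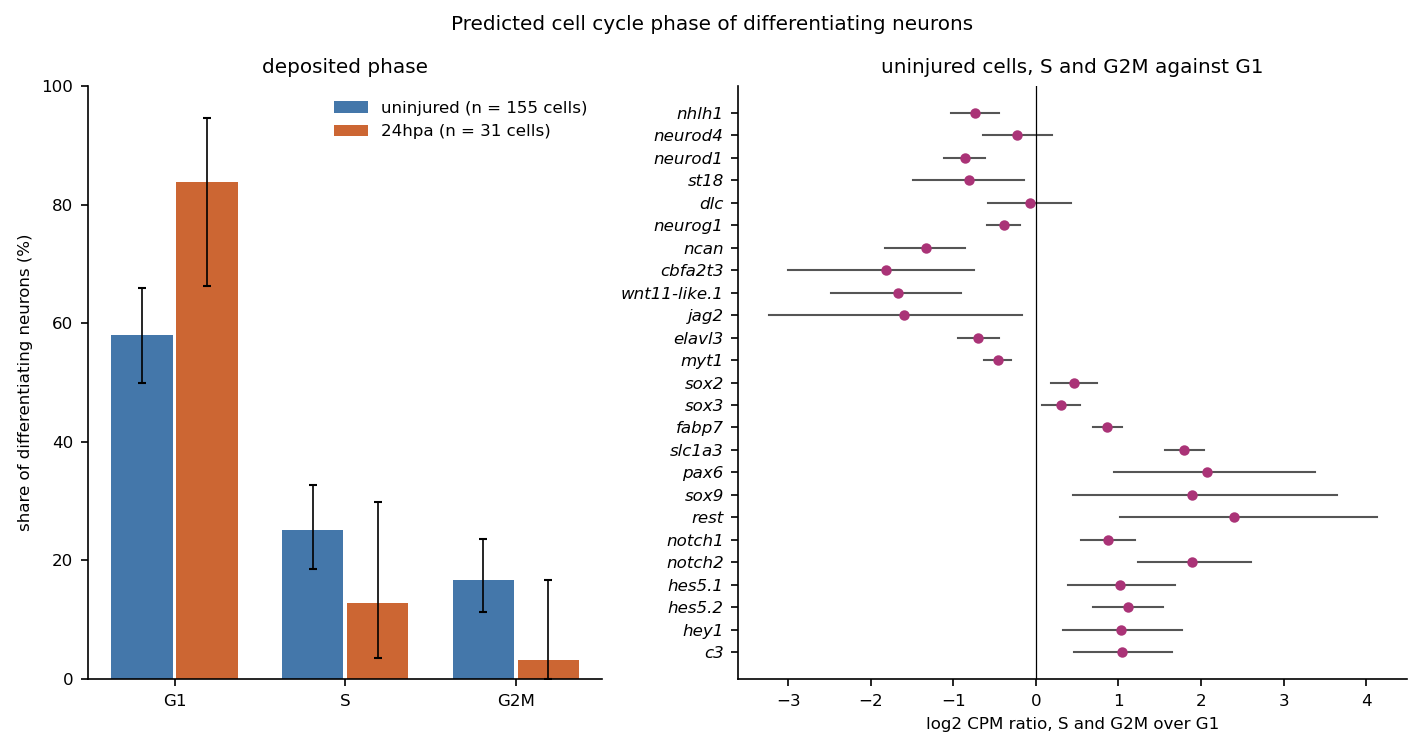
Share of differentiating neurons called G1, S and G2M in each library, in percent of cells as deposited, with exact Clopper-Pearson 95% intervals (left, axis in percent of cells), and the log2 CPM ratio of S and G2M cells over G1 cells with its 95% interval for selected genes in the uninjured library (right). The G1 share was 58.1% in uninjured cells and 83.9% at 24hpa, and slc1a3, pax6 and rest lie to the right of 0 while nhlh1, neurod1 and ncan lie to the left.

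Within the uninjured library, the 65 cells called S or G2M and the 90 cells called G1 differed beyond the genes of division. They also differed in place on the map. Medians on its first axis, where progenitors lie at high values, were 2.62 in S and 1.55 in G2M against -0.66 in G1. Phase and map position therefore go together in the differences below. A gene is called different here and below when the ratio of its CPM was at least 2-fold and the 95% interval of the ratio excluded 1, among genes with 20 UMIs or more. Of 5793 genes, 518 (8.94%) were higher in S and G2M cells and 67 (1.16%) were lower. The replication and mitosis lists moved as the phase calls require, with 12 of 13 and 13 of 13 genes higher, and carry no information beyond them. Of 14 progenitor and radial glia genes, 3 were higher and none lower, with a median log2 ratio of 0.54 against 0.06 over all genes. For slc1a3 the level was 818 CPM in S and G2M cells and 236 CPM in G1 cells, a log2 ratio of 1.79 (1.56 to 2.03). For pax6, whose promoter drives the sorted reporter, it was 42.1 against 10.1 CPM, and for the gliogenic factor gene sox9 23.3 against 6.28 CPM. The other 11 were not called, among them sox2 (0.46), sox3 (0.31), nes (0.10) and epha4 (-0.07). Genes listed as markers of other tissues were higher in the S and G2M cells too. They were the mesenchymal collagen genes col3a1 (108 against 33.9 CPM) and col1a2 (28.8 against 11.3 CPM) and the keratin gene krt18 (1974 against 814 CPM). In the uninjured library krt18 had 2220 UMIs left after an estimate of free RNA was subtracted. The part of these genes in the differences was not tested.

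Notch pathway genes showed both directions between these cells. Of 14 tested, 5 were higher in S and G2M cells, namely the receptor gene notch2 (log2 ratio 1.89), the repressor genes hey1 (1.03), hes5.1 (1.02) and hes5.2 (1.11), and hes6.2 (1.12). The ligand gene jag2 was lower (-1.60). The neuronal gene repressor rest stood at 33.3 CPM in S and G2M cells and 6.28 CPM in G1 cells. None of the 5 markers of differentiating neurons was called, but nhlh1 was at 185 CPM in S and G2M cells against 308 CPM in G1 cells (log2 ratio -0.73, -1.03 to -0.44). For neurod1 it was 249 against 453 CPM (-0.86, -1.11 to -0.62). Higher in G1 cells were also cbfa2t3, a corepressor gene (38.9 against 11.1 CPM), the wnt11-like gene (70.3 against 22.2 CPM) and ncan (148 against 58.7 CPM).

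Between the libraries, 371 of 6229 tested genes (5.96%) were called higher at 24hpa and 461 (7.4%) lower in differentiating neurons. The median log2 ratio over all 6229 genes was 0.01. Scaling by TMM factors moved every ratio by -0.11 on the log2 scale and gave 287 higher and 568 lower genes, so ratios of gene groups are read beside the median of all genes. Of the 10 genes that set the cluster apart in both libraries, elavl3 was higher and the wnt11-like gene lower, and the other 8 were not called. Over all 6229 genes, 13.4% were called in either direction. The 10 genes were ranked after the study's clustering, and whether membership of the cluster depends on them was not tested. Ranking by the lower of the ratios of both libraries favours genes that are high in each. The number of them called is therefore not read as a result. The share of neural cells in the cluster (19.9% uninjured, 10.5% at 24hpa) is not read as a gain or loss of cells.

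**Figure D4:**
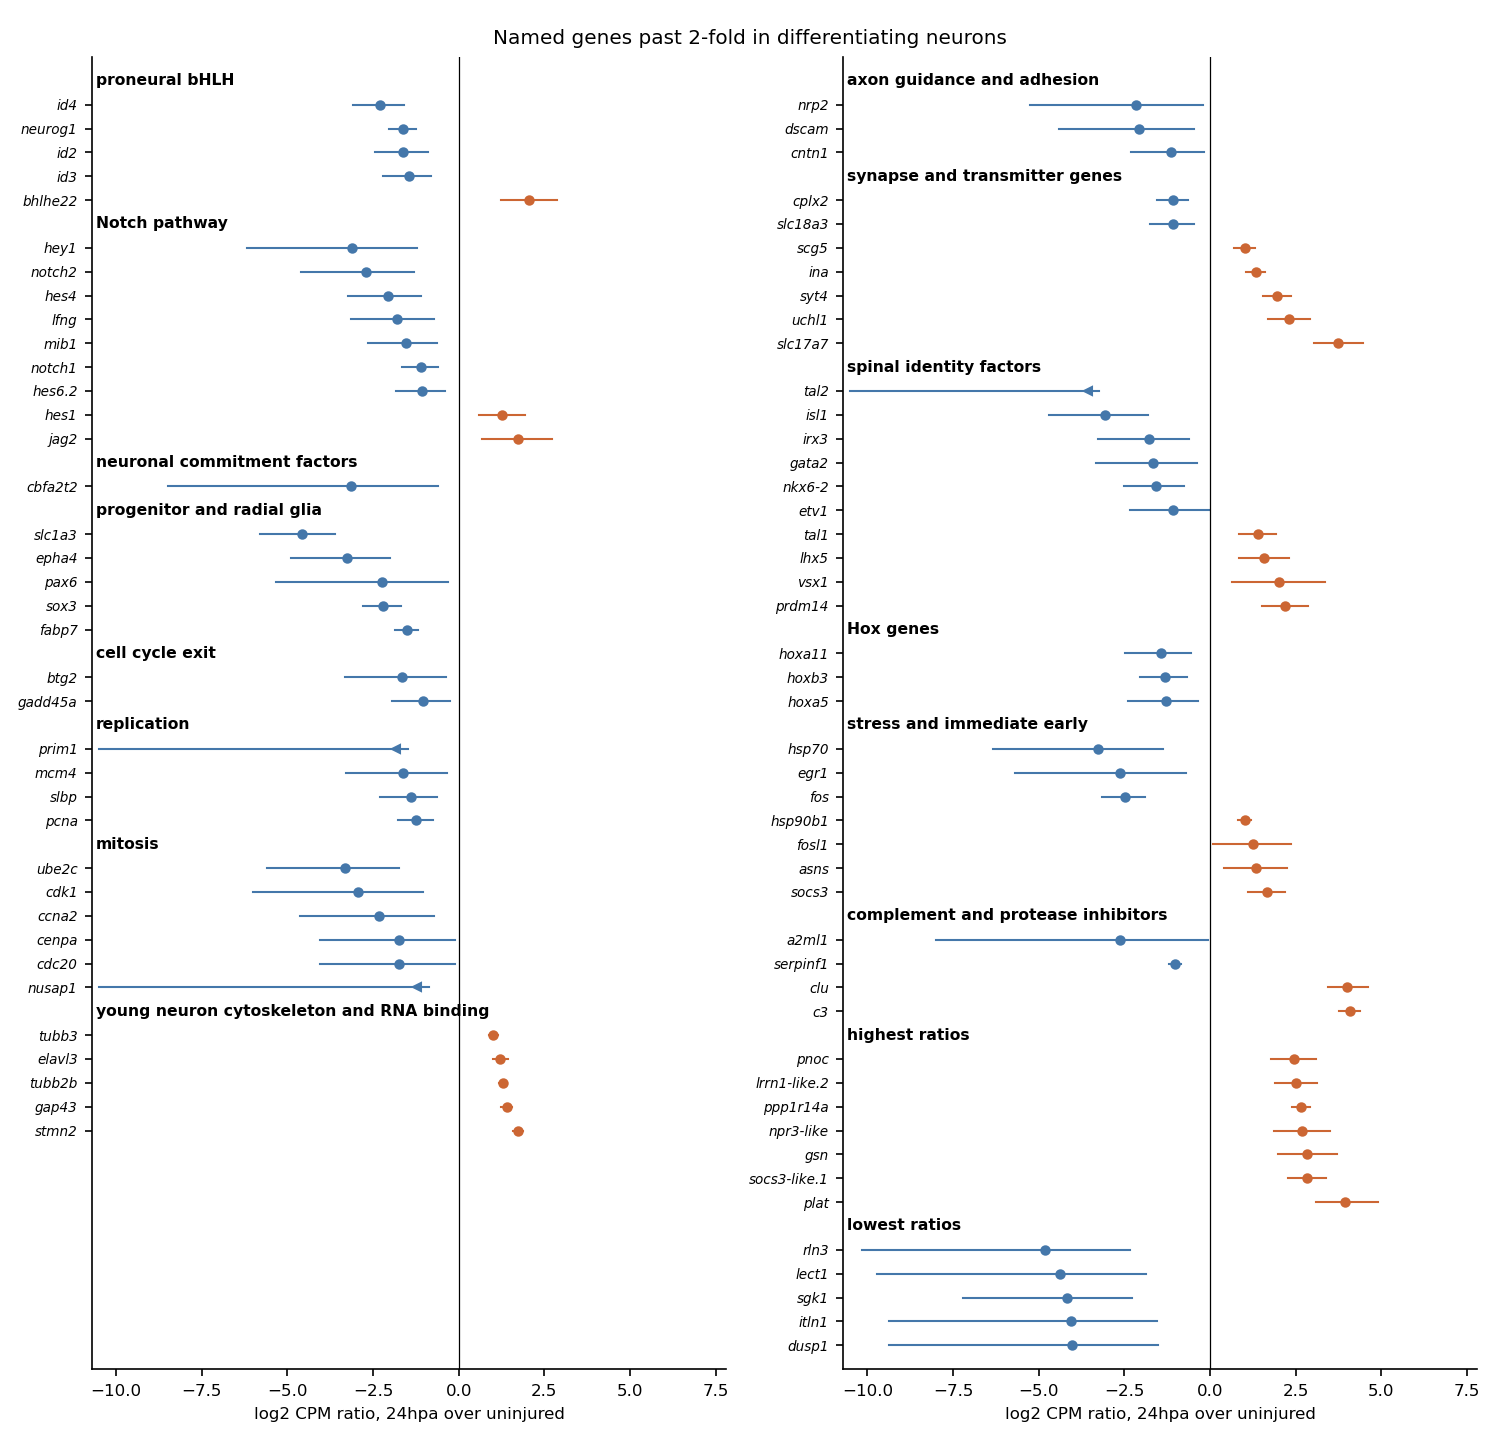
Log2 CPM ratio of 24hpa over uninjured differentiating neurons for the named genes called higher (orange) or lower (blue), grouped by list, with 95% counting intervals. Triangles are bounds for genes with no UMI in 1 library, whose interval is open to the side of the triangle, and all 5 young neuron genes lie to the right of 0 and all 5 progenitor genes to the left.

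Of 13 proneural and inhibitory bHLH genes tested, 1 was higher and 4 were lower at 24hpa, with a median log2 ratio of -0.42. The upstream factor neurog1 stood at 493 CPM in uninjured cells and 159 CPM at 24hpa, 3.10-fold lower (log2 ratio -1.63, -2.05 to -1.24). It was detected in 129 of 155 uninjured cells and in 13 of 31 cells at 24hpa, or in 62.0% and 28.2% of cells thinned to equal depth, against 3.40% and 1.69% of muscle cells. Its level was lower at 24hpa in every other neural cluster with at least 20 cells in each library too, with log2 ratios of -1.65 in progenitors, -2.78 in interneurons and -3.94 in vulnerable motor neurons.

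The later bHLH genes were not called. The nhlh1 ratio was 0.55 (0.25 to 0.84), with UMIs in 107 of 155 and 22 of 31 cells. The neurod4 ratio was -0.38 (-0.98 to 0.17). The neurod1 ratio was -0.42 (-0.75 to -0.10), although its UMIs lay in fewer of the cells at 24hpa, 13 of 31 against 119 of 155, or 28.4% and 51.3% of thinned cells. The 13 cells at 24hpa held 91 neurod1 UMIs, up to 24 in 1 cell. Without its top cell the neurod1 ratio was -0.77. In the middle of the map the ratios were -1.46 for neurod1, -1.30 for neurod4 and 0.031 for nhlh1. In G1 cells alone they were -0.92, -0.78 and 0.28. The ratios of neurod1 and neurod4 therefore depend on the cells taken. The gene called higher was bhlhe22, which encodes a bHLH repressor of postmitotic neurons, at 17.1 CPM uninjured and 70.9 CPM at 24hpa (log2 ratio 2.05, 1.22 to 2.88). The Id proteins bind bHLH partners and block them, and id2, id3 and id4 were all lower, with log2 ratios of -1.61, -1.46 and -2.29. For id4 the levels were 236 and 48.2 CPM. Muscle cells, uninjured and at 24hpa, held id2 at 21.3 and 6.32 CPM, id3 at 133 and 35.1 CPM and id4 at 28.4 and 32.3 CPM.

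The Notch pathway list had 7 of 14 tested genes lower and 2 higher, with a median log2 ratio of -0.99. Among receptors, notch1 was at 208 CPM uninjured and 96.5 CPM at 24hpa, and notch2 at 73.6 and 11.3 CPM. The call for notch1 was lost in 4 of 10 alternatives, G1 cells alone among them (-0.81). Alternatives are other choices of cells, of filter or of how levels were computed. Of the 10, leaving out doublets changed no cell and the minimum of 1000 genes left out 1 uninjured cell. The call for notch2 was lost in the middle of the map, where its ratio was -0.11. The fringe glycosyltransferase gene lfng, which tunes receptor response to ligands, had a ratio of -1.81, and mib1, the ubiquitin ligase gene needed for ligand activity, -1.55. Of the downstream repressor genes, hes4 was at 107 and 25.5 CPM (-2.07, -3.22 to -1.11) and hey1 at 48.9 and 5.67 CPM, the latter from 83 and 2 UMIs. The hes6.2 ratio was -1.08. The calls for hes4 and lfng held in all 10 alternatives, while hey1 lost its call in the middle of the map, mib1 there and in G1 cells, and hes6.2 in 3 alternatives. In the opposite direction, hes1 was at 35.3 CPM uninjured and 85.1 CPM at 24hpa and jag2 at 13.0 and 42.6 CPM. Both genes were also detected in muscle cells, at 31.9 and 42.0 CPM uninjured and at 9.82 and 4.91 CPM at 24hpa. Among the lower genes, muscle cells held notch1 at 94.9 and 12.6 CPM, notch2 at 21.0 and 4.21 CPM and hes4 at 55.1 and 19.6 CPM. There lfng was at 37.3 and 6.32 CPM, mib1 at 15.8 and 11.9 CPM, hey1 at 25.5 and 23.9 CPM and hes6.2 at 3.46 and 4.21 CPM. Whether the lower levels are particular to differentiating neurons was not tested. The hes1 call was lost in 3 alternatives, with a ratio of 0.33 in cells of 20000 UMIs or fewer, and the jag2 call without its top cell (0.88). The ligand gene dlc had almost equal levels of 81.8 and 76.6 CPM and a ratio of -0.10 (-0.75 to 0.51).

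Progenitor and radial glia genes were lower or not called. Of 14 tested, 5 were lower and none higher, with a median log2 ratio of -0.82. The slc1a3 level was 545 CPM uninjured (926 UMIs in 80 cells) and 22.7 CPM at 24hpa (8 UMIs in 5 cells), 24.0-fold lower (log2 ratio -4.59, -5.80 to -3.60). Progenitors held 1095 and 609 CPM of the same gene, a ratio of -0.85. The sox3 level was 382 CPM and 82.3 CPM, with UMIs in 116 of 155 and 9 of 31 cells, and its ratio was -2.22 (-2.81 to -1.68) against -0.96 in progenitors. Neither difference between the clusters was tested. The ephrin receptor gene epha4 was at 135 and 14.2 CPM, and pax6 was at 27.1 and 5.67 CPM from 46 and 2 UMIs. In G1 cells alone the pax6 ratio is only a bound, at most -0.028, from 8 uninjured UMIs and the floor of 3 UMIs at 24hpa. The call for its ratio of -2.26 was lost in 3 of 9 alternatives, G1 cells among them. The fatty acid binding protein gene fabp7, a radial glia marker, was at 679 and 238 CPM, and lost its call in 3 of 10 alternatives. The related factor gene sox2 at 271 and 193 CPM, nes at 171 and 187 CPM and vim at 614 and 355 CPM were not called. In the middle of the map the sox2 ratio was -1.11, and those of nes and vim were -0.023 and -0.36.

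Genes of division were lower as well. Of 15 replication genes 4 were lower, with a median of -1.05, and of 13 mitosis genes 6 were lower, with a median of -1.73. The sliding clamp gene pcna was at 236 CPM uninjured and 99.3 CPM at 24hpa, and the mitotic ubiquitin-conjugating enzyme gene ube2c at 84.8 and 8.51 CPM from 144 and 3 UMIs. The primase gene prim1 had 52 UMIs in uninjured cells and none at 24hpa, at least 3.6-fold lower on a floor of 3 UMIs over the group. In G1 cells alone, the pcna ratio was -0.23 and the ube2c ratio -1.31, neither of them called. These genes move with the phase shares above, and their part beyond the phases was not tested. Among 7 genes of cell cycle exit, the antiproliferative gene btg2 and the growth arrest gene gadd45a were lower. Its relative gadd45g, a gene of early neurons, was at 563 and 678 CPM and was not called.

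The young neuron list, with genes of the cytoskeleton and of RNA binding, had 5 of 13 tested genes higher at 24hpa and none lower, with a median log2 ratio of 0.79. The neuronal tubulin genes tubb2b and tubb3 were at 1102 and 1033 CPM in uninjured cells and at 2689 and 2077 CPM at 24hpa. The RNA-binding protein gene elavl3 was at 326 and 757 CPM (log2 ratio 1.22, 1.00 to 1.43) and was detected in 135 of 155 and in all 31 cells. The growth cone phosphoprotein gene gap43 was at 471 and 1237 CPM (1.39, 1.22 to 1.56). The microtubule destabilizer gene stmn2 was at 575 and 1918 CPM (1.74, 1.59 to 1.88). Of its 676 UMIs at 24hpa, 231 lay in 1 cell, and in cells of 20000 UMIs or fewer its ratio was 0.98 and was not called. Calls for tubb2b and gap43 held in all 10 alternatives run, while elavl3 was not called in G1 cells alone or in the middle of the map, and tubb3 lost its call in 8 of 10 alternatives. The related RNA-binding gene elavl4 was at 1113 and 925 CPM and nova1 at 830 and 477 CPM, neither of them called.

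Synapse and transmitter genes were mixed, with 5 of 19 higher, 2 lower and a median of 0.20. The vesicular glutamate transporter gene slc17a7 had the largest ratio, 14.1 CPM uninjured and 187 CPM at 24hpa, 13.2-fold higher (log2 ratio 3.73, 3.03 to 4.47). It was detected in 13 of 155 and 14 of 31 cells, or 3.3% and 26.3% of thinned cells, against 0.485% of uninjured muscle cells and 0 of 59 muscle cells at 24hpa, which allows a share of up to 5.08%. The vesicle calcium sensor gene syt4 was at 65.9 and 255 CPM, the ubiquitin hydrolase gene uchl1 at 27.7 and 136 CPM and the intermediate filament gene ina at 197 and 496 CPM. Lower were the release regulator gene cplx2 at 282 and 133 CPM and the vesicular acetylcholine transporter gene slc18a3 at 143 and 68.1 CPM. The slc18a3 call was lost in 4 of 10 alternatives, with a ratio of -0.089 in the middle of the map, and the calls for ina and cplx2 in cells with at least 2 of the 5 markers. The core release gene snap25, at 505 and 582 CPM, was not called. Of 4 differentiation markers that the study chose on these samples, uchl1 and ass1 were higher and l1cam and nsg1 were not called. A list chosen on these samples is no independent evidence of its direction. Separately, the study stained tails for these 4 transcripts by in situ hybridization and saw the strongest signal of each in the neural ampulla at 24hpa. That signal is not a level in differentiating neurons. The study recognised neurons in transition by neurog1 and neurod1 and listed nhlh1 and the membrane protein gene tmem178.2 as markers of the cluster found on these samples. Of these 4 genes neurog1 was lower, and the others, with tmem178.2 at 256 and 394 CPM, were not called.

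Of 8 neuronal commitment factors, 1 was lower, the corepressor gene cbfa2t2 at 25.3 and 2.84 CPM. Near the call stood myt1, of the same family as the marker st18. Its level was 742 CPM uninjured and 383 CPM at 24hpa, a ratio of -0.96 (-1.22 to -0.70). The sox11 level was 700 and 1089 CPM, a ratio of 0.64, and was not called. Of 14 genes of axon guidance and adhesion, 3 were lower and none higher, and the median was -0.26. Those were the contactin gene cntn1 (56.5 and 25.5 CPM), the semaphorin receptor gene nrp2 (25.3 and 5.67 CPM) and dscam (35.9 and 8.51 CPM), which encodes an adhesion molecule of the immunoglobulin family. None of these 3 calls held in all 10 alternatives, and that for cntn1 was lost in 5.

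Spinal identity factors were called in both directions, with 5 of 22 tested genes higher, 6 lower and a median of -0.01. The homeobox gene vsx1, which is active in V2 interneuron precursors, was at 7.07 CPM uninjured and 28.4 CPM at 24hpa, from 12 and 10 UMIs in 3 of 155 and 7 of 31 cells. Its call was lost in the middle of the map and in cells with at least 2 of the 5 markers. The LIM homeobox gene lhx5 was at 26.5 and 79.4 CPM (log2 ratio 1.58, 0.85 to 2.30). At 24hpa 8 of the 9 cells with lhx5 also held nhlh1, against 22 of all 31 cells. The blood and spinal interneuron factor gene tal1 was at 51.8 and 136 CPM, and was not called in the middle of the map (0.97). The prdm14 ratio of 2.20 rests on 1 cell, which held 38 of the 39 UMIs at 24hpa, and is -2.71 without it.

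Among those lower, tal2, a bHLH factor gene of GABAergic neurons, had 171 UMIs in 36 of 155 uninjured cells and none in the 31 cells at 24hpa (a share of up to 9.68% is allowed), at least 11.8-fold lower. Uninjured muscle cells held tal2 in 10.4% of cells against 23.2% of differentiating neurons, and 155 of the 171 UMIs were left after an estimate of free RNA was subtracted. Dopaminergic neurons had the highest tal2 level, 4251 CPM uninjured and 2622 CPM at 24hpa. The LIM homeobox gene isl1, which marks motor neurons and other ventral and sensory neurons, was at 118 and 14.2 CPM (-3.06, -4.70 to -1.81), in 85 of 155 and 3 of 31 cells. Of the 85 uninjured cells with isl1, 78 held neurog1, against 129 of all 155 cells. Of the 36 with tal2, 22 held isl1, against 85 of all 155 cells. Neither overlap was tested. In vulnerable motor neurons isl1 was at 143 and 111 CPM, a ratio of -0.37. The zinc finger gene gata2 (45.3 and 14.2 CPM), the ventral patterning gene nkx6-2 (110 and 36.9 CPM), the patterning gene irx3 (58.9 and 17.0 CPM) and the ETS factor gene etv1 (48.3 and 22.7 CPM) were lower too. Of these, nkx6-2 and irx3 held their calls in all 10 alternatives, gata2 lost its call under the mean of CPM per cell (-0.82) and etv1 in 5 alternatives. Of 25 Hox genes, which record position along the body axis, 3 were lower and none higher, and the median was -0.53. These were hoxa11, hoxa5 and hoxb3, each of which lost its call in 1 alternative, while the posterior genes hoxc13 (378 and 318 CPM) and hoxa13 (157 and 105 CPM) were not called.

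The largest ratio among genes with 50 UMIs or more and UMIs in both libraries was that of c3, which encodes the central complement component. Its level was 70.7 CPM uninjured (120 UMIs in 51 of 155 cells) and 1189 CPM at 24hpa (419 UMIs in 22 of 31 cells), 16.8-fold higher (log2 ratio 4.07, 3.78 to 4.38). Of the 419 UMIs, 99 lay in 1 cell. The share of thinned cells with c3 was 13.4% and 60.1%, against 2.67% and 10.2% of muscle cells. Progenitors held more c3, 303 CPM uninjured and 2893 CPM at 24hpa, and vulnerable motor neurons 18.2 and 84.9 CPM. The log2 ratio was 3.26 in progenitors, 2.22 in vulnerable motor neurons, 0.20 in interneurons and -0.77 in motor neurons. At 24hpa 14 of the 22 cells with c3 also held the cluster marker nhlh1, a lower share than in the cluster as a whole (22 of 31 cells). Of the cells with c3, 11 held neurog1, a higher share than in the cluster as a whole. Neither difference was tested. The depth of the 22 cells with c3, a median of 9650 UMIs, was close to the 9084 UMIs of the 9 cells without c3. Of the 4 complement and protease inhibitor genes tested, c3 and clu were higher, and serpinf1, the gene of a secreted neurotrophic factor, at 1634 and 811 CPM, and a2ml1, from 30 and 1 UMIs, were lower. The serpinf1 call was lost in 3 alternatives and the a2ml1 call in 7.

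**Figure D5:**
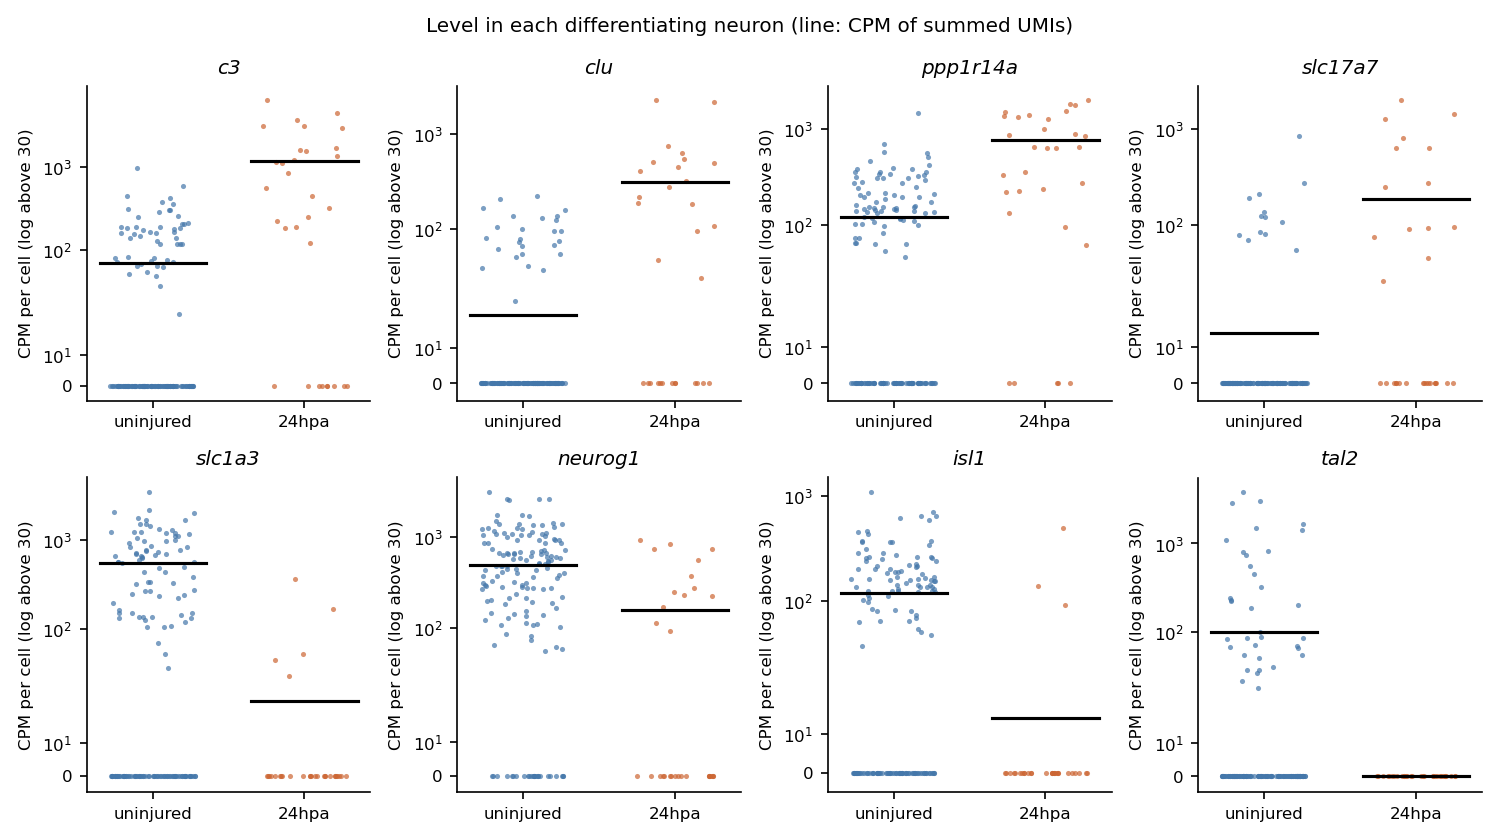
Level of 8 genes in each differentiating neuron of the uninjured and 24hpa libraries, in CPM per cell on an axis that is linear near 0 and logarithmic above 30 CPM, 1 point per cell. Black lines are the CPM of summed UMIs, for example 70.7 and 1189 CPM for c3 and 118 and 14.2 CPM for isl1, and the cells at 0 held no UMI of the gene.

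Next came clu, the gene of the extracellular chaperone clusterin, at 19.4 and 312 CPM (log2 ratio 4.01, 3.43 to 4.61). It was seen in 16.8% and 58.1% of differentiating neurons. Muscle cells held clu in 8.01% of cells uninjured (8.65 CPM) and in 39.0% at 24hpa (68.8 CPM). Whether muscle cells express c3 or clu themselves was not tested, so their shares may not be a background for these genes. The tissue plasminogen activator gene plat was at 8.83 and 136 CPM, and the actin-severing gelsolin gene gsn at 12.4 and 87.9 CPM. The phosphatase inhibitor gene ppp1r14a was at 123 and 772 CPM (2.65, 2.38 to 2.92), in 83.9% of the cells at 24hpa. The opioid-related peptide gene pnoc was at 23.0 and 125 CPM and was also higher in interneurons, with 23 and 1438 UMIs. The cytokine signalling inhibitor gene socs3 was at 44.7 and 142 CPM, and its ratio lay between 1.16 and 1.90 in each neural cluster except floor plate, which had 1 cell at 24hpa.

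Of 15 stress and immediate early genes, 3 were lower and 4 higher, and the median was 0.58. The lower ones were fos at 366 and 65.2 CPM, the heat shock gene hsp70 at 54.8 and 5.67 CPM and egr1 at 34.7 and 5.67 CPM, and with them, outside the list, dusp1 (79 and 1 UMIs) and sgk1 (173 and 2 UMIs). The fos level was also lower at 24hpa in each other cluster, with log2 ratios from -2.81 to -1.03. The 4 higher were socs3, the asparagine synthetase gene asns, the chaperone gene hsp90b1 and fosl1, of which socs3 alone held its call in all 10 alternatives.

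Several of the lowest ratios belonged to genes of other tissues or neuron classes. The relaxin gene rln3, at 137 and 1 UMIs, was highest in dopaminergic neurons (10595 and 12716 CPM), and 16.7% of uninjured muscle cells held it against 23.9% of differentiating neurons. Of the 137 UMIs, 107 were left after subtraction of free RNA, and the rln3 call held in all 10 alternatives. The cartilage gene lect1 (101 and 1 UMIs) and the epidermal lectin gene itln1 (80 and 1 UMIs) had no UMI left after subtraction of free RNA in either library, as had otos and col2a1. All 4 notochord markers tested were lower, and so were 3 of 5 muscle markers and 4 of 6 epidermal markers. The notochord list had a summed level of 1745 CPM uninjured and 618 CPM at 24hpa, but it includes krt18. In uninjured cells krt18 kept 2220 UMIs after subtraction of free RNA, while col2a1 and col9a1 kept none. The sum is therefore not read as RNA from notochord cells. The krt18 call was lost under the mean of CPM per cell (-0.73) and in the middle of the map (-0.79). The epidermal list also held 1 gene that was higher, the epithelial adhesion gene epcam, at 20.6 and 53.9 CPM (log2 ratio 1.39), a call lost in 2 of 10 alternatives. Endothelial, myeloid and melanocyte markers were at or near 0, apart from tal1, which spinal interneurons also express. Erythroid markers came to 35 UMIs in the uninjured library (20.6 CPM) and 0 at 24hpa, while free RNA held 437 and 29.2 CPM of them. Mesenchymal markers came to 185 and 18 UMIs in sum, and oligodendrocyte and neural crest markers to 14 UMIs or fewer in the uninjured library and 0 at 24hpa. The median log2 ratio of 55 ribosomal protein genes was -0.14, and 1 of them was called.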

How the data were processed

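GFP-positive tail cells were sequenced with the 10X Genomics V2 droplet protocol, 1 library from uninjured tails and 1 at 24hpa. The deposited UMI counts per gene and barcode were made by the authors with Cell Ranger, and the deposited cell tables, made by the authors with Seurat, give cluster names, UMAP positions, S and G2M scores and the phase called from them. The genome build is not given here because the submitters' notes name a zebrafish build.

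Cells were matched to counts by barcode and library, and UMIs were summed over the differentiating neurons of each library and scaled to CPM. Exact Poisson, conditional and Clopper-Pearson 95% intervals cover counting error only, and with 1 library per group no test was run. A gene with 20 UMIs or more was called at 2-fold or more with an interval excluding equality. A gene without UMIs in 1 library was set to a floor of 3 UMIs over the group. The genes named were the 10 highest and 10 lowest ratios among called genes of 50 UMIs or more, the 10 genes most above other neural cells in both libraries, and the members of 17 gene lists with 20 UMIs or more that were called or that a list's account turns on. Genes without a descriptive symbol were counted and not described, and a few list members are not reported here. The members and the lists were chosen with earlier results of these data known.

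Doublets were called with Scrublet in scanpy 1.11.5. Phases were scored again with Seurat 5.3.0, TMM factors came from edgeR 4.0.16, and intervals from scipy 1.17.1. Calls were checked on simulated counts drawn with counting error alone, which the intervals also assume. This check cannot show how the spread between cells affects the calls. The alternatives were TMM factors, the mean of CPM per cell, other UMI minimums, doublets left out, at least 1000 genes per cell, G1 cells only, the cell with the most UMIs of a gene left out and free RNA subtracted. Limits on UMIs per cell, map position and marker number were added after seeing the data. Leaving out doublets removed 0 differentiating neurons and the limit of 1000 genes 1 uninjured cell, so both are weak checks of a call. The depth of each library is given in the report. Another 25 columns of the cell tables were not used.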

Additional observations from a re-analysis of the deposited data

Results flagged for a closer look

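For 13 comparisons, a gene called in differentiating neurons was called in the opposite direction in another neural cluster with at least 20 cells in each library. Each difference between clusters rests on 1 library per group, and none of them was tested. Values are log2 ratios of CPM, 24hpa over uninjured.

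Against spinal cord progenitors, ppp1r14a was at 2.65 in differentiating neurons and -1.10 in progenitors, the microtubule gene stmn2 at 1.74 and -1.93, the filament gene ina at 1.34 and -1.47, and the epithelial adhesion gene epcam at 1.39 and -2.70. Against interneurons, the glutamate transporter gene slc17a7 was at 3.73 and -1.06, and the transcription factor gene tal1 at 1.39 and -1.50. In interneurons slc17a7 had 132 UMIs uninjured and 49 at 24hpa, and in differentiating neurons 24 and 66.

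In the motor neuron cluster tal1 was at -1.99, prdm14 at -2.25 against 2.20 in differentiating neurons, and the endoplasmic reticulum chaperone gene hsp90b1 at -1.18 against 1.01. In vulnerable motor neurons tal1 was at -1.93 and the keratin gene krt18 at 1.03 against -1.33. In leptin+ motor neurons the growth arrest gene gadd45a was at 4.06 against -1.05 and prdm14 at -7.12. The prdm14 ratio of differentiating neurons rests on 1 cell. Their hsp90b1 call was lost in 5 of 10 alternatives. Their calls for stmn2, ina, epcam, tal1, krt18 and gadd45a were each lost in at least 1. No epcam UMI of the uninjured differentiating neurons was left after subtraction of free RNA.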

How the results depend on the processing

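No paired analysis was possible because each group is 1 library. There were 371 genes called higher at 24hpa in differentiating neurons and 461 genes called lower at 24hpa in differentiating neurons as reported. TMM scaling gave 287 and 568, the mean of CPM per cell 543 and 524, and subtraction of free RNA 379 and 416. A minimum of 50 UMIs gave 212 higher genes of 3939 tested. Leaving out the cell with the most UMIs of each gene gave 225 higher and 596 lower genes. G1 cells alone gave 289 and 274, and cells in the middle of the map, a limit added after seeing the data, 248 and 237. Of 101 named genes called, 49 kept the call in every alternative that gave a value. Among them were c3, clu, slc17a7, ppp1r14a, neurog1, slc1a3, sox3, isl1, tal2, lhx5, tubb2b and gap43. Leaving out doublets removed none of these cells, so that alternative could not change a call. The minimum of 1000 genes left out only 1 uninjured cell. Genes not called as reported could also pass 2-fold in an alternative, as neurod1 (-1.46), neurod4 (-1.30) and sox2 (-1.11) did in the middle of the map. Directions reversed for cenpa in G1 cells (0.97) and in the middle of the map (0.38), for col3a1 in the same settings (0.091 and 0.63), for prdm14 in cells of 20000 UMIs or fewer (-2.86) and without its top cell (-2.71), and for asns in the middle of the map (-0.076). These settings use fewer cells, 90 and 26 in G1 and 72 and 24 in the middle of the map, so ratios of low genes have wide intervals. The 31 cells at 24hpa held 352503 UMIs against 1698385, which limits what is detected there.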
